A study of Mus musculus with 48 samples.

Results

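The regions described here carried H3K27ac in both H3K27ac sets of a group and lay at H3K4me3 of the same group, in skeletal progenitors of newborn mouse limbs. In each group, a peak of the second H3K27ac set was kept if it overlapped by at least 1 base a peak of the first H3K27ac set and an H3K4me3 peak of that group. This kept 4660 peaks, which merged over the 6 groups into 3422 regions, out of 12229 regions from all second-set peaks merged in the same way. The regions were chosen by the peak positions in these lists, so their number, their H3K27ac and their H3K4me3 are given as a description and were not tested.

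Cells came from the limbs of 3-day-old C57BL/6 pups and were sorted into 3 populations: SSC (skeletal stem cells), BCSP (progenitors of bone, cartilage and stroma) and pBCSP (the stage before BCSP). All mice carried floxed Ptip alleles (Ptipf/f). Mice of the WT groups had no other allele named, and mice of the KO groups also carried Cre under control of Col2a1 (Ptipf/f;Col2a1-cre), the gene of the main cartilage collagen, which is active in cartilage and its progenitors. Each of the 6 groups had 2 H3K27ac libraries, 1 H3K4me3 library, 1 H3K4me1 library and 2 RNA libraries. How many animals were pooled for a library, and whether replicates came from separate animals, is not stated, so p-values measure only the spread between these samples.

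H3K4me3 is written at the starts of active genes by the SET1 and MLL families of methyltransferases. H3K27ac is written by the acetyltransferases p300 and CBP at active promoters and enhancers, and H3K4me1 marks enhancers and the flanks of promoters. PTIP, encoded by Paxip1 (the gene called Ptip in the labels), is an adaptor in the MLL3 and MLL4 methyltransferase complexes. Where H3K27ac and H3K4me3 lie together, a start is usually in use, and broad stretches of both are known at genes that define a cell type.

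The sequences below show what the promoters at these regions look like, as the bases before the annotated start from the RefSeq promoter table (GRCm38.p6). Ibtk and Psmd1 were chosen after their values were seen because a region kept in 5 groups covers these bases in whole or in part. Zfp386 is the gene with a start at one of the 12 regions kept in most groups, and Paxip1 is the gene targeted in the KO mice. Capitals mark matches, on either strand, to 6 searched motifs: the TATA box TATAAA, the CCAAT box by that name, the GC box core GGGCGG, the cAMP response element TGACGTCA, the hypoxia response core ACGTG and the palindromic core of the NRF1 site. The windows are chr9:85749335-85749584 on the minus strand for Ibtk, chr1:86064369-86064618 on the plus strand for Psmd1, chr12:116047474-116047723 on the plus strand for Zfp386 and chr5:27791551-27791800 on the minus strand for Paxip1.
Ibtk: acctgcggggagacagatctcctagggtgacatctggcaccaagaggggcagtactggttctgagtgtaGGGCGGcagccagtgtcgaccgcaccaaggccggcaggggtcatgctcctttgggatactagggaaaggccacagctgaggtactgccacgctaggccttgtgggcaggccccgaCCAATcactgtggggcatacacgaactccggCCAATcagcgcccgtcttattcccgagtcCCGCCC
Psmd1: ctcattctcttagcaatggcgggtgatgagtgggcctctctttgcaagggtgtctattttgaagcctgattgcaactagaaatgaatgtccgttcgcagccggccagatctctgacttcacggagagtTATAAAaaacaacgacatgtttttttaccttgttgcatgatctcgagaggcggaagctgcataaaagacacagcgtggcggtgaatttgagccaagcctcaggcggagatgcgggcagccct
Zfp386: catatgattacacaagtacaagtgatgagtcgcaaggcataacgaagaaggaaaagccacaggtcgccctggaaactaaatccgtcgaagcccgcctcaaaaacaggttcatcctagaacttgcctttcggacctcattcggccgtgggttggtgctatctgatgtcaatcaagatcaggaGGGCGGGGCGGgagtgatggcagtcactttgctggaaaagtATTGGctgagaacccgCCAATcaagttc
Paxip1: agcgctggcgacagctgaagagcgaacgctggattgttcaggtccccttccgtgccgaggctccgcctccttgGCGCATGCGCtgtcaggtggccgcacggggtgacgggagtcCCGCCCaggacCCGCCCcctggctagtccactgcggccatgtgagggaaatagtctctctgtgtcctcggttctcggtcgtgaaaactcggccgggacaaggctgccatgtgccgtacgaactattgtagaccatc
The region at Ibtk holds all 250 bases of its window and the region at Psmd1 holds 155 of them. The regions at Zfp386 and Paxip1 lay downstream of the start and held none of the printed bases. GGGCGG was found at Ibtk, Zfp386 and Paxip1, and CCAAT at Ibtk and Zfp386. In Paxip1 the NRF1 palindrome began 177 bases before the start, and in Psmd1 TATAAA began 122 bases before it.

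Several regions lay at loci of microRNAs, and some mature forms are shown, among them pairs that share a seed. Other mature forms from these loci are not shown, and many of them have further seeds. These loci were chosen after their values were seen. Capitals mark the seed, bases 2 to 8 from the 5′ end, and the sequences are those of RefSeq (GRCm38.p6).
mmu-miR-199a-5p: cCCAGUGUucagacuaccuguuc
mmu-miR-199a-3p: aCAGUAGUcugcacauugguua
mmu-miR-199b-3p: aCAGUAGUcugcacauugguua
mmu-miR-27a-3p: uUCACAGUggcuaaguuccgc
mmu-miR-27b-3p: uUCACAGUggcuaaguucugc
mmu-miR-24-3p: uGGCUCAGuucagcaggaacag
mmu-miR-140-3p: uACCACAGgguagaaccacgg
miR-199a-3p and miR-199b-3p share the seed CAGUAGU and the whole sequence, and miR-27a-3p and miR-27b-3p share the seed UCACAGU. The same mature miR-24-3p is made from 2 hairpins, Mir24-1 beside Mir23b and Mir27b, and Mir24-2 beside Mir23a and Mir27a. Both of these clusters had regions in their surroundings, described below.

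The number of kept peaks differed widely between groups and followed the length of the second-set list. SSC WT had 47 kept peaks of 137 second-set peaks (34.3%) and SSC KO had 396 of 1119 (35.4%). pBCSP WT had 1186 of 3811 (31.1%) and pBCSP KO 367 of 1105 (33.2%). BCSP WT had 150 of 785 (19.1%) and BCSP KO 2514 of 8572 (29.3%). KO thus had more kept peaks than WT in SSC and BCSP and fewer in pBCSP, while the share of the list that was kept lay between 29.3% and 35.4% in 5 groups and was lower in BCSP WT. With the longer list of each population shortened to as many peaks as the shorter one held, those of highest -log10 q, the counts were 47 in WT and 61 in KO for SSC, 387 and 367 for pBCSP, and 150 and 426 for BCSP. Near equal counts in pBCSP replaced the surplus of WT, and the surplus of KO in BCSP was smaller. Each group had 1 list of each set, so these differences have no replicate check.

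**Figure D1:**
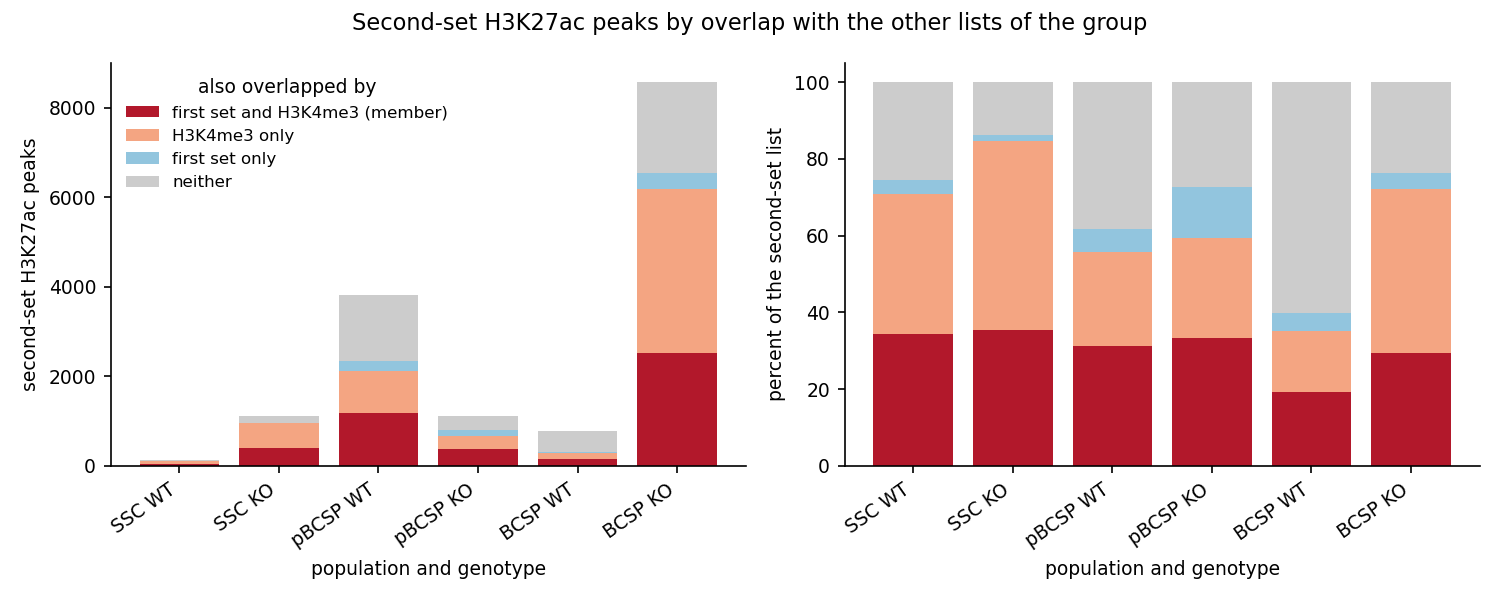
The left panel plots the number of second-set H3K27ac peaks per group and the right panel their percentages, with colours for overlap with a first-set peak and an H3K4me3 peak of the same group. The kept share (dark red) ranges from 19.1% in BCSP WT to 35.4% in SSC KO, while list length ranges from 137 to 8572 peaks.

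H3K4me3 lay under more than 50% of second-set peaks in 5 of the 6 groups, whether or not the first set held them. It lay under 70.8% of second-set peaks in SSC WT, 84.7% in SSC KO, 55.7% in pBCSP WT, 59.3% in pBCSP KO, 35% in BCSP WT and 72.2% in BCSP KO. Among second-set peaks also found in the first set it lay under 90.4%, 95.7%, 83.7%, 71.4%, 80.2% and 87.8% in the same order. In each of the 6 groups the share at H3K4me3 was thus higher among peaks that both H3K27ac sets held. The first-set lists themselves lay at H3K4me3 for 65.3% of peaks in BCSP KO to 93.2% in SSC KO. These lists were also used by the rule, so the difference is a description and was not tested. A further 684 merged regions were shared by both sets outside H3K4me3. Kept peaks took up a small part of the H3K4me3 lists, from 0.137% of 33510 peaks in SSC WT to 5.18% of 38500 peaks in BCSP KO.

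Most regions were kept in 1 group. This held for 2574 of 3422 (75.2%), while 602 were kept in 2 groups, 173 in 3, 54 in 4, 18 in 5 and 1 in all 6. BCSP KO alone gave 1753 regions (51.2%) and pBCSP WT alone 539 (15.8%), and these were also the groups with the longest second-set lists. The commonest combination of groups was pBCSP WT with BCSP KO, at 332 regions (9.7%). Of the 47 SSC WT regions 28 (59.6%) were also kept in BCSP KO, which is 1.12% of the BCSP KO regions, and 21 (44.7%) in SSC KO, which is 5.37% of those. Within pBCSP, 147 regions were kept in both genotypes, 12.7% of the WT and 40.3% of the KO regions. Within BCSP, 69 were kept in both, 46.0% of the WT and 2.77% of the KO regions.

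A region kept in 1 group was in most cases marked in the other groups too. H3K4me3 peaks of all 6 groups lay at 2750 of the 3422 regions (80.4%), and at 1997 of the 2574 regions kept in 1 group (77.6%). First-set H3K27ac peaks of all 6 groups lay at 444 regions (13.0%), at 132 of those kept in 1 group (5.13%) and at 144 of the 246 kept in 3 or more groups (58.5%). The median region was overlapped by first-set peaks of 3 groups. H3K4me1 of all 6 groups lay at 1887 regions (55.1%), with 55.1% of the regions kept in 1 group and 59.8% of those kept in 3 or more. H3K4me3 and first-set peaks were used by the rule, and the first-set lists were the shorter ones (1828 to 7951 peaks, against 25468 to 42399 of H3K4me3), so these shares were not compared between marks.

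Regions kept in 1 genotype were looked up in all lists of the other genotype. The rule fixes part of the outcome, since these regions were not kept there, and the other genotype's second-set list was in most cases the shortest of its lists. Of 2426 regions kept in BCSP KO and not in BCSP WT, an H3K4me3 peak of BCSP WT lay at 2234 (92.1%), a first-set H3K27ac peak at 1662 (68.5%) and a second-set peak at 26 (1.07%). Of 1014 regions kept in pBCSP WT and not in pBCSP KO, the KO lists held H3K4me3 at 869 (85.7%), the first set at 611 (60.3%) and the second set at 79 (7.79%). Of 370 kept in SSC KO and not in SSC WT, the WT lists held H3K4me3 at 348 (94.1%), the first set at 233 (63.0%) and the second set at 9 (2.43%). No H3K27ac peak of either set was listed for the other genotype at 749 (30.9%), 348 (34.3%) and 131 (35.4%) of these regions. In BCSP WT the picture differed, since of its 81 regions not kept in KO the KO second set held 29 (35.8%) and the KO first set 30 (37.0%).

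**Figure D2:**
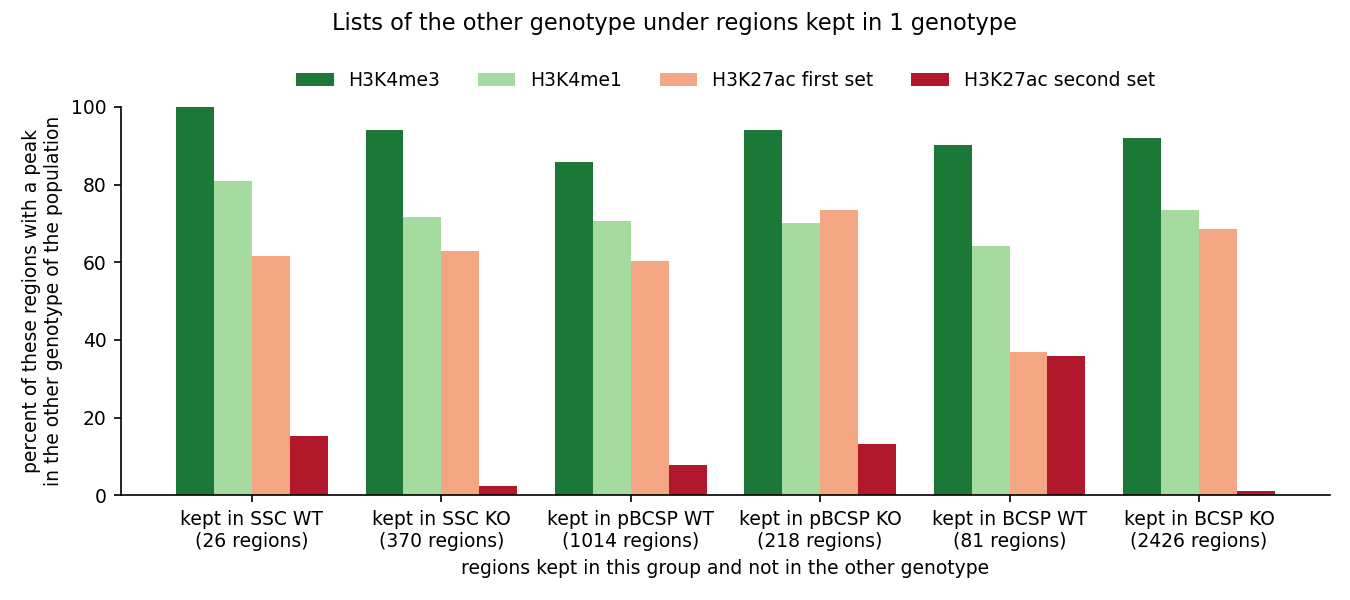
Bars give, for regions kept in 1 genotype of a population and not in the other, the percentage with a peak in the other genotype, for each of the 4 lists. H3K4me3 bars lie between 85.7% and 100%, while bars of the second H3K27ac set lie between 1.07% and 35.8%.

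Regions lay both at promoters and far from them. A start of a protein-coding gene lay within 1000 bases of 1838 regions (53.7%), 1108 (32.4%) were over 10000 bases from one, and 2704 (79.0%) were inside a RefSeq gene. For 698 regions the nearest gene had no entry in the promoter table and the nearer end of the gene was used, which can be its start or its end. The share of kept peaks centred within 1000 bases of a start was 53.8% in pBCSP WT, 55.6% in pBCSP KO and 53.4% in BCSP KO. It was lower in the other groups, at 36.2% in SSC WT, 36.6% in SSC KO and 41.3% in BCSP WT. Regions kept in 4 groups had a start nearby in 63.0% of cases, and the 18 kept in 5 groups in 27.8%. Chromosome X held 17 regions (0.497%), against 2.35% of the merged H3K4me3 peaks, and chromosome Y held 0.

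The summits of kept peaks stood beside the start and seldom on it. Of 4660 summits, 2261 lay within 2000 bases of an annotated protein-coding start, and 1544 of these (68.3%) were downstream, inside the gene. The median position was +286 bases, with quartiles at -273 and +555. The window from +100 to +600 bases held 1000 summits (44.2%) and that from -600 to -100 bases held 454 (20.1%). Within 75 bases of the start, a narrower window than the others, lay 59 summits (2.61%). Active genes are known to lack a nucleosome there. The same layout was seen in the larger groups, with 67.8% downstream in pBCSP WT, 67.0% in pBCSP KO, 64.7% in SSC KO and 69.2% in BCSP KO. SSC WT and BCSP WT had 16 and 59 such summits, 68.8% and 66.1% of them downstream. Chromatin was cut with MNase, per the labels, which spares DNA on nucleosomes. The part of nucleosome positions and of the cut in this layout was not tested.

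**Figure D3:**
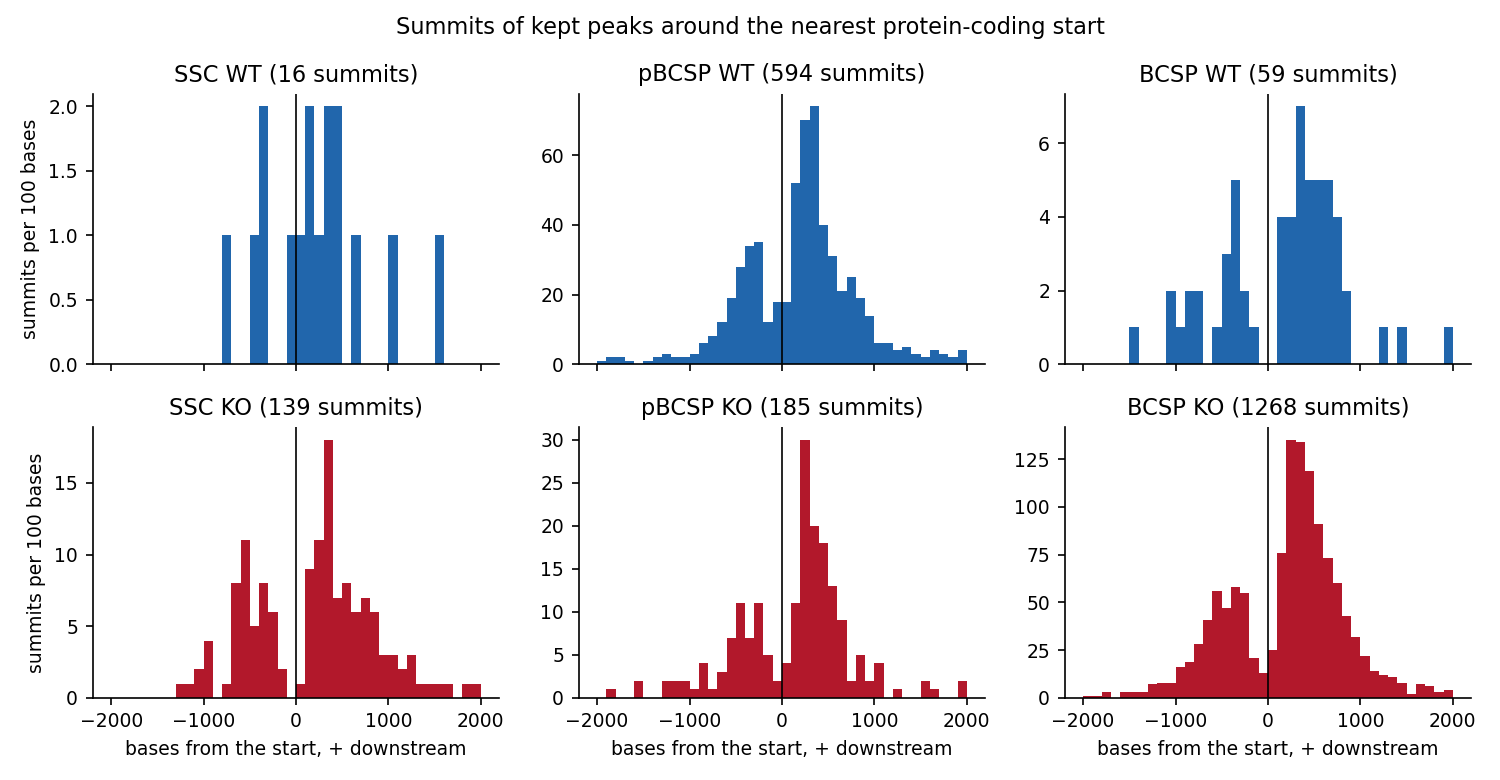
Histograms count the summits of kept peaks per 100 bases around the nearest protein-coding start, with WT in blue and KO in red and a scale of its own for each panel. In all groups but SSC WT, which has 16 summits, a larger mound lies downstream and a smaller one upstream, with few summits at the start itself.

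The H3K4me3 peaks that held a kept H3K27ac peak were wider and more enriched than the others of the same list. Their median width was 2515 bases against 1017 in BCSP KO, 2256.5 against 1127 in pBCSP WT and 2972 against 1093 in SSC KO. The median H3K4me3 fold enrichment was 18.4 against 6.42, 16.2 against 8.12 and 13.2 against 5.17 in the same groups. The widest 5% of a list held 20.6% of the overlapping H3K4me3 peaks in BCSP KO, 19.3% in pBCSP WT and 27.4% in SSC KO, and between 4.15% and 4.98% of the others over the 6 groups. Nearly all also carried H3K4me1, at 99.6%, 99.7% and 99.1% against 95%, 94.2% and 91.2%, while in BCSP WT 86.4% did against 89.5%. A wider peak offers more bases to overlap, and the part of width in the choice of these peaks was not tested. Kept H3K27ac peaks were themselves wider than second-set peaks at H3K4me3 that the first set did not hold, at a median of 339 against 261 bases in BCSP KO and 261.5 against 201 in pBCSP WT.

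**Figure D4:**
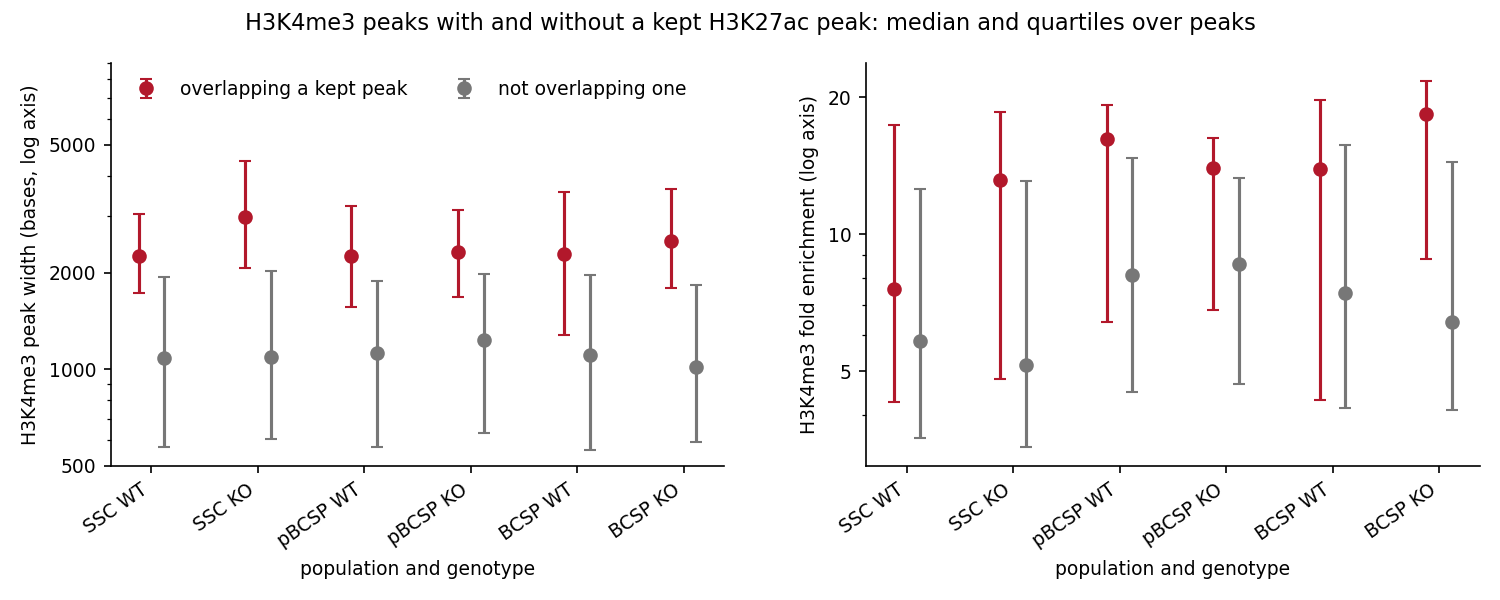
Points are medians and bars are quartiles over the H3K4me3 peaks of a group, for width (left) and the authors' fold enrichment (right), both on log axes. In each group the peaks that overlap a kept H3K27ac peak (red) have the higher median, for example 2972 against 1093 bases in SSC KO.

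The promoters at these regions were CpG-rich like those of other genes with H3K4me3, and differed from them in some motifs. The promoter table gave 1721 protein-coding starts within 1000 bases of a region, 12010 at H3K4me3 of any group without one, and 7531 with neither. Median GC content over the 300 bases was 61.7%, 61.7% and 46.7%, and the median number of CpG was 23, 21 and 3. TGACGTCA, bound by CREB and ATF factors, was found in 5.17% of promoters at a region, 2.77% of those at H3K4me3 alone and 2.23% of all 21262. ACGTG, which also lies in one form of E-box, was found in 32.2%, 24.5% and 20.9%. GGGCGG was found in 65.3%, 66.3% and 46.2%, CCAAT in 35.4%, 37.6% and 38.2%, TATAAA in 6.22%, 6.43% and 12.6%, and the NRF1 palindrome in 2.44%, 1.89% and 1.33%. All were searched on both strands, TGACGTCA is itself a palindrome, and matches of different motifs may share bases. A match is a run of letters and not a bound site.

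Divergent promoters, whose genes are read away from each other, were counted in the same classes. Neither these shares nor those of the motifs were tested. A start on the opposite strand lay within 1000 bases upstream for 359 of the 1721 starts at a region (20.9%), 1273 of the 12010 at H3K4me3 alone (10.6%) and 1694 of all 21262 (7.97%). A region near such a pair counts for both of its starts.

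The 1 region kept in all 6 groups was chr13:63140121-63140778, inside Aopep, which encodes an aminopeptidase. Its second-set fold was 7.33 in SSC WT, 7.92 in SSC KO, 10.1 in pBCSP WT, 9.59 in pBCSP KO, 4.75 in BCSP WT and 17.1 in BCSP KO. Aopep held 17 regions between bases 63091797 and 63255622 of chromosome 13, of which 15 were kept in BCSP KO, 9 in pBCSP WT, 6 in SSC KO, 4 in pBCSP KO, 2 in BCSP WT and 1 in SSC WT. The hairpin of Mir23b lies 159706 bases beyond the end of the shared region, on the plus strand inside the same gene. Mir27b and Mir24-1 follow it, and 4 regions lay within 50000 bases of Mir23b. Folds come from separate lists and were not compared between groups.

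The related cluster of Mir23a, Mir27a and Mir24-2 also lay among regions. chr8:84191274-84192046, kept in 5 groups and not in BCSP WT, lies outside any gene, 16472 bases before the hairpin of Mir23a. Other microRNA genes were nearer to it. The nearest gene of any type was Mir181c, and the hairpin of Mir181d lay 12487 bases away. In all, 12 regions lay within 50000 bases of Mir23a, the nearest at 3827 bases and kept in pBCSP WT and BCSP KO. The hairpins of Mir27a and Mir24-2 follow on the same strand. The nearest protein-coding start was that of Nanos3, a germ cell gene, 15108 bases away.

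The other regions kept in 5 groups lay inside genes, at starts and between genes. Fndc3b, which encodes a membrane protein with fibronectin type III domains, held chr3:27608192-27609262 and chr3:27606180-27607861, 101725 and 103432 bases from its start, and 8 regions in all. chr19:5846039-5848469 lies just outside Neat1, the long noncoding RNA that builds paraspeckles, and at 2431 bases was the widest region. chr10:76729033-76730274 lies 3610 bases from the start of Col6a1, a chain of collagen VI. Starts were covered or flanked at Psmd1 (a proteasome subunit), Cnbp (a nucleic acid binding protein), Ibtk (a regulator of Bruton's kinase), Hjurp (the chaperone of the centromeric histone) and Zfp386 (a zinc finger protein). Each of these carried H3K4me3 in 6 of 6 groups. Further ones were distal. chr3:104994239-104995162 lay outside any gene, 32992 bases from the start of Wnt2b, a Wnt ligand, and chr19:42017116-42018038 inside Ubtd1, 18450 bases from that of Ankrd2. chr1:86472493-86472907 lay inside Gm41907, 46371 bases from the start of Tex44, chr13:63252300-63253254 inside Aopep, 178968 bases from that of Fancc, and chr16:32858184-32859137 inside Rubcn, an inhibitor of autophagy, 9706 bases from its start. chr17:4626099-4626607 had the highest second-set fold of any kept peak, 41.3 in pBCSP WT, and 20.2 in SSC WT, 12.7 in SSC KO, 18.1 in BCSP WT and 14.3 in BCSP KO. It had no H3K4me1 peak in any of the 6 groups, and its nearest protein-coding start, that of Arid1b, was 368721 bases away.

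Some regions kept in many groups or with a high fold lay in stretches known for satellite repeats, and the part of repeats in these peaks was not tested. The first part of chromosome 9, between bases 3000062 and 3035427, held 16 regions, 15 of them kept in BCSP WT and 1 in BCSP KO. Without it BCSP WT had 135 kept peaks in place of 150. chr2:98666219-98667376, kept in 5 groups, had its highest fold in BCSP WT (18.6) and lay 2348628 bases from the nearest protein-coding start. chr14:19416848-19418332 was kept in BCSP WT alone at a fold of 11.6. Of the 3 regions kept in BCSP WT alone with the highest fold, 2 were thus of this kind (the second, chr9:3024004-3024667, at 11.3), and the other lay 447 bases from the start of Hdac4, a histone deacetylase known to restrain chondrocyte hypertrophy.

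Among regions kept in 1 group with the highest fold, those of pBCSP WT and pBCSP KO lay at promoters. They were at Zfx, Uros and Pold4 in pBCSP WT, each with a fold of 11.9, and at S100a11 (8.72), 4930505A04Rik (8.30) and Lrrc59 (7.95) in pBCSP KO. Those of SSC KO were distal, at Lpar1, a receptor for lysophosphatidic acid (11.4), at Cspg4, the proteoglycan NG2 (10.8), and near Irf2bpl (9.94). In SSC WT they were at Pck2 (8.24) and, for 2 regions, inside Fbxo7 (7.47 for each). In BCSP KO they were inside Spsb4 (14.8), 78776 bases from Lsm6 (12.7) and inside Fscn1, which encodes the actin bundler fascin (12.7). H3K4me3 was listed in all 6 groups at each of the 6 pBCSP regions named here, and in 2 to 4 groups at the 3 of SSC KO.

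The next widest regions were chr2:145785296-145787510 at the start of Rin2 (2215 bases), chr4:116075944-116077801 near Lrrc41 (1858 bases), chr8:80856877-80858567 inside Gab1, an adaptor of growth factor receptors (1691 bases), chr3:27606180-27607861 inside Fndc3b (1682 bases) and chr7:140941095-140942648 at Pgghg (1554 bases). At the edge of the rule, the smallest overlap with H3K4me3 was 1 base, for chr10:122892013-122892214 near Mon2 in BCSP WT (fold 6.65), and 5 bases near Cops8 in pBCSP WT (5.38). The smallest overlap with the first set was 1 base, for example near Wipf1 in BCSP KO (4.78). Just outside the rule, second-set peaks missed H3K4me3 by 2 bases near Sdk2 in SSC WT (5.6) and by 6 near Cd28 in BCSP KO (3.98), and bordered a first-set peak without overlap near Thoc6 in pBCSP KO (8.84) and Fam120a in pBCSP WT (5.38). Of the 4660 kept peaks 30 had under 50 bases of H3K4me3 overlap and 168 under 50 bases of first-set overlap, and 4093 (87.8%) lay wholly inside an H3K4me3 peak.

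MicroRNA hairpins lay near some regions, at a share that was not tested against that of all H3K4me3 peaks. A hairpin lay within 1000 bases of 28 regions (0.818%) and of 234 of the 50795 merged H3K4me3 peaks (0.461%). The hairpin of Mir199a-2, inside Dnm3os, the noncoding RNA transcribed against Dnm3, lay within chr1:162217763-162218459, kept in pBCSP WT, pBCSP KO and BCSP KO. Dnm3 as a whole held 19 regions, of which 18 were kept in BCSP KO, 6 in pBCSP WT, 4 in pBCSP KO and 2 in SSC KO. Mir214, from the same transcript, was 2355 bases from a region. Mir199a-1 lay inside chr9:21495835-21496686, kept in BCSP KO, and Mir574 inside chr5:64970126-64971305, kept in SSC KO, pBCSP KO and BCSP KO. Mir140, a microRNA of cartilage hosted by Wwp2, was 1538 bases from a region of BCSP KO.

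The nearest protein-coding genes numbered 2264, which is 10.3% of the 21896 protein-coding genes of RefSeq, or 15.5% of the 14096 whose RNA passed the filter on low counts. Those with a region within 1000 bases of their start numbered 1547 (7.07%). Against these shares, genes of basic gene expression were common among them, mostly at their starts, a difference that was not tested. Translation factors were nearest in 12 of 21 cases, all 12 with a start within 1000 bases. Splicing factors were nearest in 13 of 26 cases, again all at the start, and proteasome and heat shock genes in 12 of 26, with 11 at the start. Ribosomal protein genes were nearest in 37 of 85 cases, 33 at the start, and 31 of them in BCSP KO, which had a region at 1803 of all 2264 nearest genes. Among the most shared were Eif2s2, a subunit of initiation factor 2, and Rpl9, a protein of the large ribosomal subunit, each kept in SSC KO, pBCSP WT, pBCSP KO and BCSP KO, and Srsf5, a splicing factor, kept in SSC WT, SSC KO, pBCSP WT and BCSP KO. Nuclear genes of oxidative phosphorylation were nearest in 5 of 32 cases, close to the share of all genes. The lists were chosen with earlier results of these data known, and no list was tested.

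Of 24 chondrocyte genes 9 were nearest to a region, against 10.3% of all protein-coding genes, a difference that was not tested. They had 28 regions in all, and 1 gene, Hapln1, had regions within 1000 bases of a start. Hapln1, which links aggrecan to hyaluronan, had chr13:89539976-89540299 in SSC KO and pBCSP WT, chr13:89540742-89541336 in BCSP KO and chr13:89541475-89541674 in pBCSP WT. Sox5, a partner of the chondrocyte regulator Sox9, had 6 regions inside the gene, 109362 to 233968 bases from the start used. One of them, chr6:144057085-144057851, was kept in pBCSP WT, pBCSP KO and BCSP KO. Sox9 itself had 1 region, 171493 bases from the nearer gene end, in SSC KO and pBCSP WT. Wwp2 held 9 regions, kept 3 times in SSC WT, 4 in SSC KO, 5 in pBCSP WT, 2 in BCSP KO and 0 in pBCSP KO and BCSP WT. Trps1, a GATA-type repressor of chondrocytes, was nearest to 9 regions. By group, the chondrocyte genes with a region numbered 2 in SSC WT, 5 in SSC KO, 7 in pBCSP WT, 2 in pBCSP KO, 1 in BCSP WT and 5 in BCSP KO. All protein-coding genes with a region numbered 44, 310, 933, 333, 127 and 1803 in the same order.

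Genes of the osteoblast list were nearest in 4 of 14 cases, against 10.3% of all protein-coding genes, which was not tested. Atf4, a transcription factor of amino acid stress and of osteoblasts, had 4 regions at its start, one kept in SSC KO, pBCSP WT, pBCSP KO and BCSP KO. Sparc, the matrix protein osteonectin, had 3 regions, and the collagen I genes Col1a1 and Col1a2 had 1 and 3, all of BCSP KO. Mef2c, of the hypertrophic list, had 2 regions, 30202 and 30684 bases from its start, one of them kept in 4 groups. Skeletal progenitor and stromal genes were nearest in 4 of 26 cases (Dcn, Gli2, Twist1 and Prrx2), each with 1 region. Cspg4 had 8 regions, of which 1 at its start was kept in SSC KO, pBCSP WT, BCSP WT and BCSP KO.

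The number of genes nearest to a region is given for the signalling lists and some others. Of all protein-coding genes 10.3% were nearest to a region, and of those with RNA tested 15.5%. The lists were not tested against these shares, and some counts are small. BMP and TGF-beta genes counted 12 of 25, among them Id3 with 4 regions, Id2 with 3, the inhibitory Smad7 with 4, and the receptors Bmpr1a, Bmpr2 and Tgfbr2. FGF and IGF genes counted 8 of 18, with the receptor Fgfr1 and the inhibitor Spry2 at 3 regions each. Wnt genes counted 1 of 18 (the co-receptor Lrp5), Notch genes 1 of 13 (Notch2), and hedgehog and PTHrP genes 0 of 10. Immediate early genes counted 12 of 22, with 28 regions, among them Klf6 with 6, Klf4 with 5, and Nr4a2 with 1 region kept in SSC KO, pBCSP WT, pBCSP KO and BCSP KO. Among chromatin genes, Brd2, a reader of acetylated histones, had 4 regions at its start and Kdm6b, an H3K27 demethylase, 4 inside the gene. Leukocyte, erythroid, skeletal muscle, adipocyte and Schwann cell genes were nearest in 0 of 15, 12, 12, 8 and 8 cases, endothelial genes in 1 of 12 (Erg) and osteoclast genes in 1 of 8 (Nfatc1, a transcription factor also active outside osteoclasts).

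RNA gave a readout that the choice of regions did not use. The 12 libraries held 15495915 to 22670899 counts, and the number of genes with a read was 13987 in SSC KO replicate 2 against 20965 to 23831 in the other 11. Values of single genes are CPM (counts scaled to a common library size) on TMM library sizes. They are not per length, so levels of different genes were not compared. The summed CPM below were scaled to the total counts of a library, without TMM. Of the 2264 nearest genes 2241 were matched in the count table and 2187 passed the filter on low counts. The summed CPM of chondrocyte genes ranged from 47200 to 125000 in WT and from 90400 to 143000 in KO libraries. That of osteoblast genes ranged from 34100 to 58900 in WT and from 28000 to 38600 in KO. Erythroid genes had 40.6 to 280.0 in WT and 11.9 to 36.1 in KO. Among the lists of cell types and surface markers summed this way, only the erythroid ranges did not overlap between genotypes. Leukocyte genes, for example, had 6.78 to 44.3 in WT and 20.2 to 84.6 in KO. In bulk samples, fewer cells of a type and less RNA per cell cannot be told apart, and the part of cell makeup in the RNA results below was not tested.

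Paxip1, the targeted gene, had its 6 lowest levels in the 6 KO libraries. In SSC the level was 13.7 and 11.8 CPM in the WT libraries and 0.347 and 0 CPM in the KO libraries, where the 0 allows up to 0.166 CPM. In pBCSP it was 14.6 and 7.56 in WT against 0.568 and 0.0904 in KO. In BCSP it was 13.2 and 7.25 in WT against 3.48 and 0.791 in KO. The groups did not overlap, and BCSP KO kept the most. On average Paxip1 fell by 4.52 ± 0.76 on the log2 scale (SE, edgeR adjusted p = 0.0396, lower in 6 of 6 KO libraries). Its promoter had 1 region, chr5:27790791-27791059, centred 625 bases downstream of the start and kept in pBCSP WT alone, with a fold of 6.43. H3K4me3 was listed there in 6 of 6 groups, the first H3K27ac set in 1 and H3K4me1 in 0, so the promoter peak of H3K4me3 was called in KO cells as well.

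Genes nearest to a region changed about as often as all genes. On average over the populations 37 of the 2187 passed (1.69%), 31 higher and 6 lower in KO, against 205 of 17494 tested (1.17%), of which 169 were higher (0.966%) and 36 lower (0.206%). With a start within 1000 bases of a region, 15 of 1525 passed (0.984%). At an unadjusted p under 0.05 there were 424 of the 2187 (19.4%), against 19.6% of all genes. The median difference of the 2187 was -0.13 log2 and that of all genes tested -0.09. In single populations 0 genes passed in edgeR (0.0% of all tested), with 168, 142 and 164 of the 2187 at an unadjusted p under 0.05 in SSC, pBCSP and BCSP (7.68%, 6.49% and 7.50%, against 9.39%, 6.27% and 6.26% of all). DESeq2 passed 11, 7 and 20 of the 2187 in the same order, against 174, 99 and 123 of the 17494 genes tested (0.995%, 0.566% and 0.703%). The 37 calls on average depended on which libraries were fitted. A fit without 1 library leaves 1 library in a group, so such fits are described here by direction only. Leaving out a WT library, pBCSP KO replicate 2 or BCSP KO replicate 2 removed the calls among nearest genes. Fewer passed without pBCSP KO replicate 1, and more without BCSP KO replicate 1 or SSC KO replicate 1. Leaving out SSC KO replicate 2, the library with the fewest genes with a read, changed their number little. With the libraries of a genotype that share a number summed over populations, 0 passed in edgeR, with 1505 of all genes at an unadjusted p under 0.05.

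Of the glycolysis list, 5 of 21 genes were nearest to a region, against 10.3% of all protein-coding genes, and 2 of these 5 passed. Ldha, which turns pyruvate into lactate, had 644 to 1190 CPM in WT (median 945) and 1950 to 3670 in KO (median 2730). The groups did not overlap, and Ldha rose by 1.54 ± 0.23 log2 (edgeR adjusted p = 0.0312). Aldoa, an aldolase, had 395 to 659 CPM in WT and 934 to 1460 in KO, and rose by 1.23 ± 0.19 log2 (adjusted p = 0.0312). The region at the Ldha start was kept in pBCSP WT alone and that at Aldoa in BCSP KO alone, while RNA of both was higher in all 6 KO libraries than in any WT library. Of the whole list 13 of 21 passed, all of them higher in KO, against 1.17% of all genes tested that passed and 0.966% that passed higher in KO. The list was chosen with earlier results of these data known and was not tested against these shares. The glucose transporter genes Slc2a1 (0.67 log2, adjusted p = 0.135) and Slc2a3 (1.42, 0.165) and the hexokinase gene Hk1 (0.25, 0.435) did not pass.

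Of the chondrocyte list, 12 of the 24 genes passed and were higher in KO, among them 5 of the 9 nearest to a region. Of all genes tested, 1.17% passed and 0.966% passed higher in KO. The list was chosen with earlier results of these data known and was not tested against these shares. Hapln1 had 615 to 1830 CPM in WT and 1620 to 2790 in KO, groups that overlap because SSC WT replicate 1 was above pBCSP KO replicate 1, and rose by 1.01 ± 0.19 log2 (edgeR adjusted p = 0.049). Sox5 had 79.7 to 206 CPM in WT and 166 to 411 in KO, and rose by 1.07 ± 0.21 (0.0495). Col9a1, a chain of collagen IX, rose by 1.16 ± 0.21 (0.0484), Cnmd, the cartilage protein chondromodulin, by 1.40 ± 0.25 (0.044), and Snorc, a proteoglycan of cartilage, by 1.57 ± 0.25 (0.0357). In all 6 KO libraries each of these 5 genes exceeded its mean over WT. This describes genes already picked by the same test and adds no support to it. Wwp2 (1.22 ± 0.28, adjusted p = 0.0727), Trps1 (0.59, 0.214), Sox9 (0.51, 0.24) and Fmod (0.26, 0.602) did not pass. The ranges of summed chondrocyte RNA, given above, overlapped between genotypes, and the part of that sum in these differences was not tested.

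Among nearest genes with the largest differences, 10 of 12 were higher in KO, as were 169 of the 205 called among all genes tested. Gask1a had 2.51 to 8.73 CPM in WT and 10.8 to 57.5 in KO, and rose by 2.77 ± 0.52 log2 (edgeR adjusted p = 0.049). Nqo1, a quinone reductase of the oxidative stress response, had 10 to 23.5 CPM in WT and 41.6 to 95.5 in KO, and rose by 2.05 ± 0.35 (0.0418), with a region of BCSP KO 679 bases from its start. Cox4i2, the hypoxia-induced isoform of a cytochrome oxidase subunit, rose by 2.07 ± 0.25 (0.0244), with 2 regions inside Bcl2l1, 20232 and 21158 bases from the nearer end of Cox4i2. Grhpr, a glyoxylate reductase, rose by 1.78 ± 0.33 (0.0472) and Josd2, a deubiquitinase, by 1.60 (0.049), each with a region of BCSP KO at its start. Zfp648, Efcab1, Rflna, Colgalt2 and Pdia4 also rose, by 1.58 to 2.31 log2. Besides Paxip1, Tuft1 was the one that fell, by 1.64 ± 0.27 (0.0357).

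The nearest genes that fell numbered 6 in all. Eif2b3, a subunit of the exchange factor for initiation factor 2, had 49.9 to 74.8 CPM in WT and 21.4 to 37.5 in KO, without overlap, and fell by 1.00 ± 0.18 log2 (edgeR adjusted p = 0.0463). Plpp1, a lipid phosphatase, had 170 to 297 CPM in WT and 69.5 to 120 in KO, and fell by 1.24 ± 0.21 (0.0406). Cgnl1, a junction protein, fell by 1.34 (0.0391) and Col5a1, a chain of collagen V, by 0.94 (0.049). Eif2b3, Cgnl1 and Col5a1 are named here after their values were seen, as are Plpp1 and Serpinh1. Of those that rose, Serpinh1, the collagen chaperone HSP47, had 3890 to 5520 CPM in WT and 7740 to 12900 in KO, a rise of 0.98 ± 0.19 (0.0495).

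**Figure D5:**
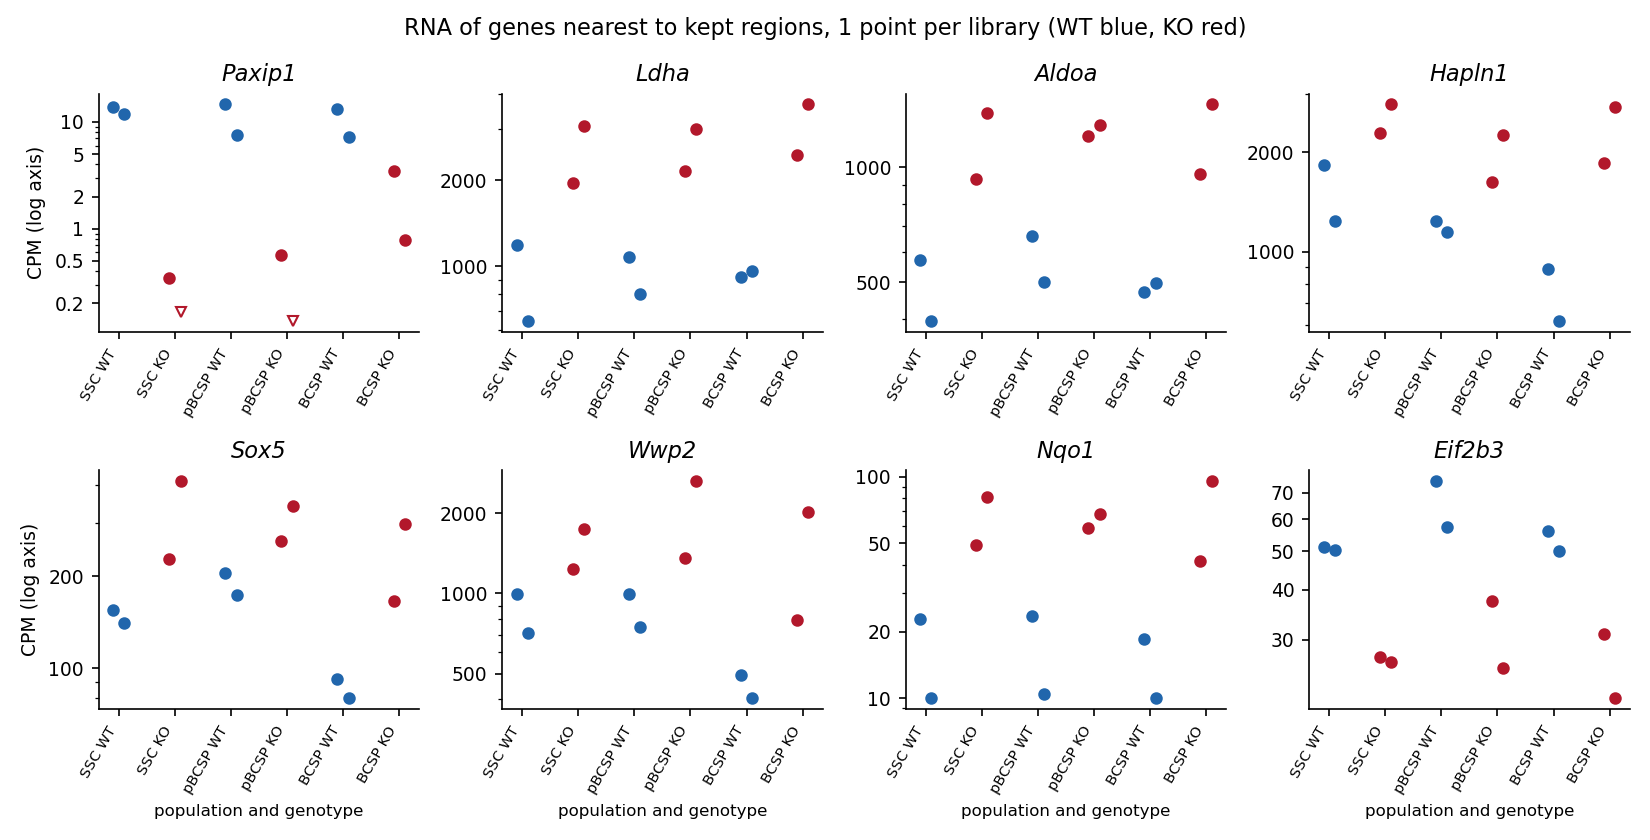
Each point is the RNA level of 1 library in CPM on a log axis, for 8 genes nearest to a region, with WT in blue and KO in red and open triangles at the level of 3 counts where a library had fewer. Ldha, Aldoa, Nqo1 and Eif2b3 do not overlap between genotypes, and neither does Paxip1, while Hapln1, Sox5 and Wwp2 overlap.

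In the large lists with regions at their starts 0 genes passed on average, in edgeR or in DESeq2. Of all genes tested, 1.17% passed in edgeR and 9.68% in DESeq2, and 19.6% had an unadjusted edgeR p under 0.05. The lists were not tested against these shares. Of the 12 translation factors, 13 splicing factors, 12 proteasome and heat shock genes and 37 ribosomal protein genes nearest to a region, 2, 2, 3 and 0 had an unadjusted edgeR p under 0.05, and the median differences were -0.13, -0.13, -0.31 and 0.10 log2. Of the 12 BMP and TGF-beta, 8 FGF and IGF and 12 immediate early genes 0 passed in edgeR, with medians of -0.31, -0.58 and -0.66 log2. At an unadjusted p under 0.05 there were 4, 1 and 0 of these, and DESeq2 passed 1, 0 and 0. The KO replicates of some immediate early genes lay far apart. Klf4 had 151 and 16.1 CPM in SSC KO, 146 and 19.5 in pBCSP KO, and 99.5 and 31.2 in BCSP KO, so replicate 2 was the lower one in each population, against 123 to 208 CPM in WT. Klf6 had the same order of replicates in KO, with 202 to 503 CPM in the replicate 2 libraries and 1020 to 1120 CPM in those of replicate 1.

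Genes of regions kept in WT and genes of regions kept in KO had small median RNA differences, mostly below 0 for both. The 813 genes nearest to regions kept in pBCSP WT and not in pBCSP KO had a median KO minus WT difference of -0.12 log2 in pBCSP, and the 208 of regions kept in KO and not in WT one of -0.19, with -0.03 for all genes. In BCSP the 61 genes of regions kept in WT and not in KO had a median of -0.04 and the 1721 of regions kept in KO and not in WT one of -0.08, with -0.01 for all. In SSC the medians were -0.09 for 24 genes of WT regions and -0.13 for 289 of KO regions, with -0.22 for all. With a start within 1000 bases, the KO regions gave 0.01 in SSC, -0.19 in pBCSP and -0.03 in BCSP, and the WT regions -0.09, -0.11 and -0.08.

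Some loci kept in most groups or with many regions are named here for RNA that did not pass the test between genotypes. Other genes with several regions did pass, among them Sox5 and Hapln1, described above. Of all genes tested, 1.17% passed in edgeR. Aopep had 118 to 276 CPM in WT and 116 to 261 in KO (-0.18 ± 0.13 log2, edgeR adjusted p = 0.488), and the BCSP libraries of both genotypes were the lowest, at 116 to 127 CPM. Fndc3b had 61.1 to 84.1 CPM in WT and 74.2 to 94.6 in KO (0.26 ± 0.14, 0.344). Psmd1 had 161 to 225 CPM in WT and 123 to 175 in KO (-0.39 ± 0.16, 0.223). Dnm3os had 10.1 to 37.9 CPM in WT and 3.38 to 37.5 in KO (-0.15 ± 0.42, 0.875), and since it overlaps Dnm3 on the other strand and the strand of the reads is not stated, their reads may be mixed. Col6a1 had 2010 to 4010 CPM in WT and 439 to 2910 in KO (-1.06 ± 0.36, 0.162), with replicate 2 the lower one in each KO population.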

How the data were processed

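The authors deposited raw counts of reads per gene for 12 RNA libraries and 1 peak list per ChIP library, giving each peak a score, a fold enrichment (ratio) and the -log10 of its p and q. Of 48 samples, the 12 input libraries were not used here. Deposited -log10 q values served only in alternatives, and deposited -log10 p and score values were not used. Per the submitters' processing notes, the tools were MACS2 2.2.6, featureCounts 2.0.1, Bowtie2 2.3.5.1, Trim Galore 0.6.6 and SAMtools 1.9, on GRCm38. The sources used here do not state the cutoffs of the peak caller, the strand or the annotation. Lists of the second H3K27ac set, numbered 2 in the labels, are narrow peaks with a summit, while those of the first set are broad peaks.

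Kept peaks were merged over groups where they overlapped by at least 1 base, and assigned by their centre to the nearest protein-coding start of the RefSeq promoter table (GRCm38.p6) or, for genes without an entry, the nearer gene end. Transcript lengths were not used here, so the planned RNA level per length is not given. RNA was fitted over 6 groups with edgeR 4.0.16 (TMM, filterByExpr, quasi-likelihood test, Benjamini-Hochberg over 17494 genes, threshold 0.05, two-sided). DESeq2 1.42.0 was an alternative. Overlaps and the RNA fit were tested on simulated data. Depth sets the precision of CPM: a count of 0 was taken to allow 3 counts, 0.134 to 0.208 CPM by library, for counting error only. The depth of the ChIP libraries is not known from the peak lists.

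Same-numbered libraries of a genotype deviated together across populations (correlations of 0.28 to 0.488), so the average contrast treats linked libraries as independent. The members and lists were chosen with earlier results of these data known. Names were taken from the 12 regions kept in most groups, per group the 3 regions kept there alone with the highest fold, the 6 widest, the 12 called genes with the largest change and all KO libraries on 1 side of the WT mean, up to 4 genes per list, and cases at the edge of the rule. Other names were chosen after their values were seen.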

Additional observations from a re-analysis of the deposited data

Results flagged for a closer look

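The number of kept peaks moved in opposite directions between genotypes in different populations. KO minus WT was 349 in SSC, -819 in pBCSP and 2364 in BCSP. Each count rests on 1 list per group and set, so the difference between populations was not tested. The lengths of the second-set lists moved the same way, as given above, and with lists of equal length within a population the differences became 61 against 47 in SSC, 367 against 387 in pBCSP and 426 against 150 in BCSP, KO first.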

How the results depend on the processing

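Counts of kept peaks depended on list length and cutoffs. With second-set peaks of -log10 q of at least 5, the merged regions fell to 1965, and the kept peaks were 31 in SSC WT, 362 in pBCSP WT, 232 in pBCSP KO, 92 in BCSP WT and 1508 in BCSP KO. With that limit on H3K4me3 SSC WT had 30. With second-set lists of equal length within a population, an alternative chosen after seeing the data, there were 1093 merged regions, 61 kept peaks in SSC KO, 387 in pBCSP WT and 426 in BCSP KO. With 1 H3K27ac set in place of both, merged regions numbered 7893 (second set) to 9898 (first set), and kept peaks 97 to 1631 in SSC WT, 948 to 2053 in SSC KO, 2121 to 4512 in pBCSP WT, 655 to 3196 in pBCSP KO, 275 to 4957 in BCSP WT and 5192 to 6187 in BCSP KO. Covering 50% of a peak (2849), H3K4me3 at that limit (3004), H3K4me3 of any group (3729) and merging within 1000 bases (2677) kept the number of merged regions within 1.5 times. In each of these settings with counts per group KO had more kept peaks than WT in SSC and BCSP and fewer in pBCSP.

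RNA calls depended on the libraries and the tool. On average over populations, the genes passing numbered 1882 without the filter, 1693 in DESeq2, 0 with counts summed over populations (an alternative chosen after seeing the data) and 0 to 6147 with 1 library left out, and of nearest genes 252, 184, 0 and 0 to 721. RLE scaling left 22 nearest genes. In SSC, pBCSP and BCSP, 395, 260 and 337 genes passed without the filter and 174, 99 and 123 in DESeq2, of them 46, 35 and 64, and 11, 7 and 20, nearest to a region. Leaving out 1 library gave 0 to 5908 genes in SSC, and 0 to 638 nearest genes, the highest without SSC KO replicate 1. The cause of these changes was not tested. Over 25 named genes and their alternatives, 149 of 425 kept the call, 276 lost it and 0 reversed.

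Same-numbered WT and KO libraries did not deviate together (correlations of 0.01, -0.022 and -0.082), so the number does not pair them. With the replicate block 24 nearest genes passed on average in place of 37.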
